A study of Schizosaccharomyces pombe with 3 samples.

Results

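The adapted culture of an eca39 deletion strain of fission yeast (Schizosaccharomyces pombe) was compared with the unadapted culture of the same strain, with 1 Affymetrix array for each. Members were the named genes whose log2 values differed between these 2 arrays by at least 0.585, which is 1.5-fold, with the higher value at or above 9.82, the 30th percentile of the table. This rule left 36 of 2899 named genes, 12 higher and 24 lower in the adapted culture. The members were chosen by this same difference, so their sizes are a description and carry no test.

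The study held 3 arrays in all. The wild-type culture came from the prototroph SpHT219 of mating type h-. The unadapted culture came from SpHT257-1, also h-, in which eca39 had been deleted with the kanMX4 cassette, and it was started from a plate of the rich medium YE, as was wild type. The adapted culture was the same strain after growth beside wild-type cells on a minimal EMM2-N plate with 15 mM glutamate and 2 mM each of isoleucine, leucine and valine. Liquid YE, again supplemented with 2 mM of each of these amino acids, was used for all 3 cultures, which were inoculated at an optical density near 0.1 and harvested near 1. Adaptation, neighbouring cells and plate medium therefore changed together and cannot be told apart. The labels name 1 mutant strain and give 1 array per group, so the spread between cultures was not measured and p-values are not given. Each array averages a whole culture, so more cells that express a gene and more transcript per cell cannot be told apart.

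Eca39 is the aminotransferase that adds the amino group in the last step of isoleucine, leucine and valine synthesis and removes it in the first step of their breakdown. Fission yeast cells couple nitrogen supply to sexual differentiation. When nitrogen is short, the transcription factor Ste11 turns on genes of mating and of entry into meiosis, among them mei2. Cells of the M type, which h- strains are, secrete the farnesylated peptide M-factor and respond to P-factor through the receptor Mam2 and the kinases Byr2, Byr1 and Spk1.

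The labelled genotype was checked first. The eca39 probe set read 14.60 in wild type, 6.12 in the unadapted and 6.37 in the adapted culture on the log2 scale, so both mutant readings lay near the bottom of the table, which began at 2.99. Of the M-type genes, mfm2 read 12.31, 12.35 and 13.30 in wild type, unadapted and adapted culture. The P-type genes map2 and map3, for P-factor and the M-factor receptor, read between 7.29 and 8.38 on all arrays and stayed below the brightness limit. The P-type regulator gene map1 was dim as well, at 7.59 in the unadapted and 8.81 in the adapted culture, with wild type lower than both. Other markers went the other way. Sxa1, listed as a P-type gene, was bright at 12.96 in wild type, 12.96 unadapted and 13.05 adapted. The M-type genes mfm1, mfm3 and mam2 were dim in wild type, at 6.59, 7.47 and 8.28. The mating type thus rests on the strain labels.

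Few features differed between the mutant cultures. Over 3609 features that reached the limit, named or not, the median log2 difference was 0.02, the standard deviation was 0.218, and 54.5% lay above 0. Of these features 24 (0.665%) were higher and 55 (1.52%) lower by at least 1.5-fold. Among the 2152 named genes at the limit the counts were 12 (0.558%) and 24 (1.12%). The remaining 43 were probe sets without a single gene name, 12 higher and 31 lower. The one farthest up, 1769739_at, read 11.70 unadapted and 13.12 adapted, and the one farthest down, 1778377_at, read 9.84 and 6.99.

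**Figure D1:**
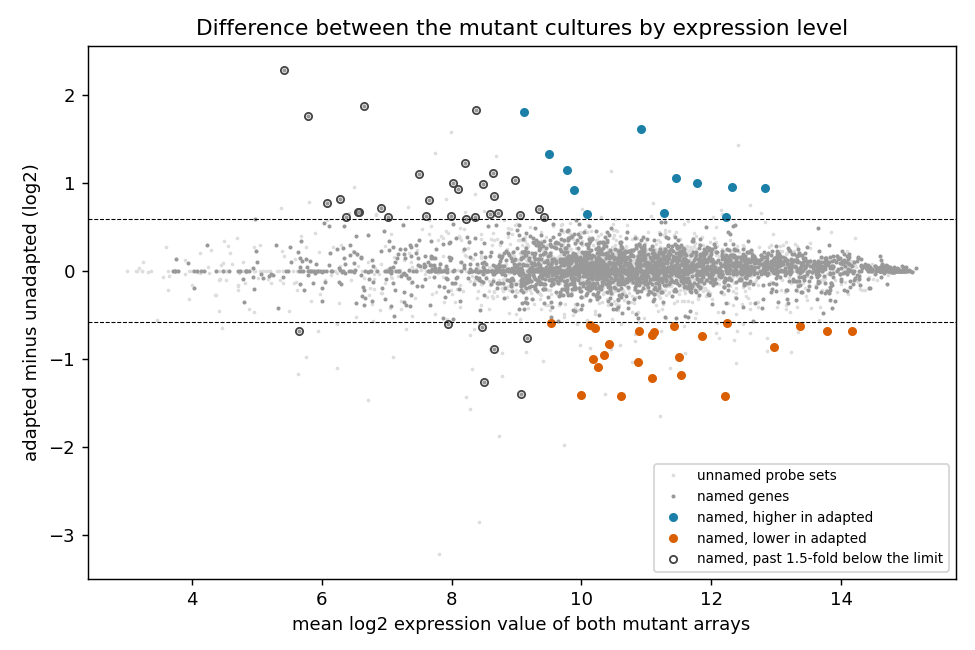
Difference between both mutant arrays (adapted minus unadapted, log2) against their mean log2 value for named genes and unnamed probe sets, 1 array each. Filled points are the 12 named genes that were higher and the 24 that were lower by the size rule, dashed lines mark a difference of 0.585 in either direction, and open circles are 36 named genes past that size whose values stayed below the brightness limit.

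The direction relative to wild type was unlike in the 2 groups of members. Of the 24 genes that were lower in the adapted culture, 18 read nearer to wild type than before and 6 read farther from it. Of the 12 that were higher, 2 read nearer and 10 farther. For comparison, among named genes that were lower by any size, 59.0% read nearer to wild type, and among those that were higher by any size 57.0% did. The unadapted array enters both the difference and the distance to wild type, so the 2 are not independent measures. In the unadapted culture 23 of the 24 lower genes had stood above wild type, and in the adapted culture 14 of them stood below it. All 12 higher genes read above wild type in the adapted culture. Without the brightness limit the balance turned, to 41 higher and 31 lower named genes, of which 27 moved toward and 45 away from wild type.

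**Figure D2:**
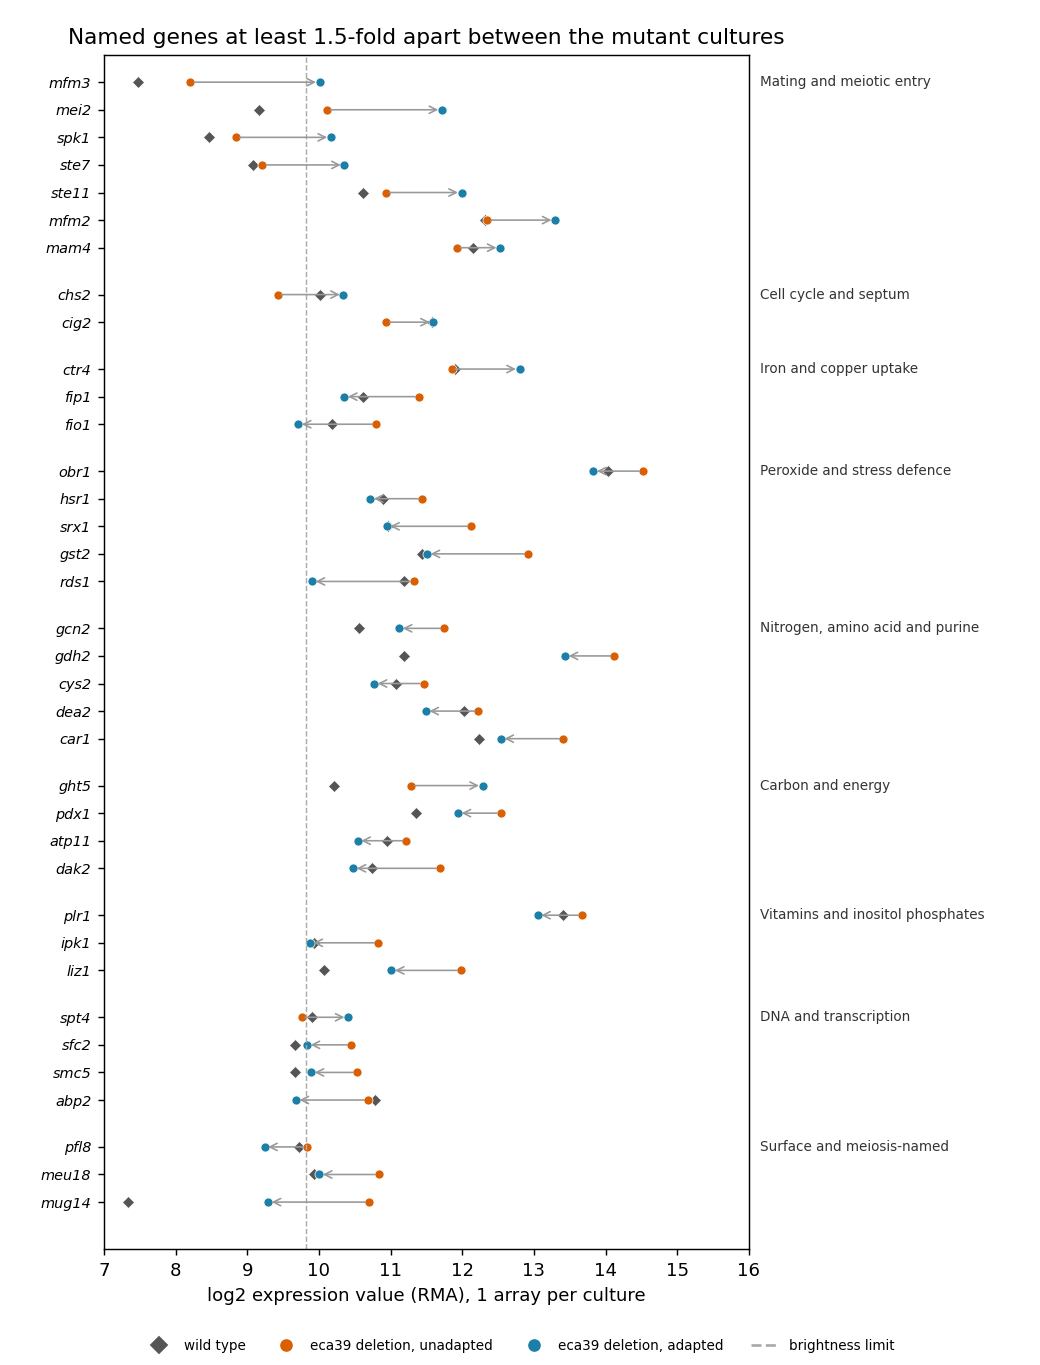
Log2 expression values of the 36 members in wild type (diamonds), the unadapted (orange) and the adapted (blue) eca39 deletion culture, 1 array each, grouped by what the genes are known for. Arrows run from the unadapted to the adapted value and the dashed line is the brightness limit of 9.82. All 7 mating and meiotic entry genes move right and away from wild type, and all 5 genes each of the stress group and of the nitrogen group move left.

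Members were grouped by known function after their values were seen, so counts by group describe the members only. Genes of mating and meiotic entry made up 7 of the 12 higher members, and none was among the lower ones. All 7 moved away from wild type. The transcription factor gene ste11 read 10.62 in wild type, 10.93 in the unadapted and 11.99 in the adapted culture. The gene of the RNA-binding protein Mei2, which drives entry into meiosis and is a known target of Ste11, read 9.16, 10.11 and 11.72. Both mutant values thus lay above wild type for these genes, and the step between the mutants was the larger one, with 2.08-fold for ste11 and 3.04-fold for mei2.

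Genes of M-factor precursors followed the same order. The precursor gene mfm3 read 7.47, 8.21 and 10.01 in wild type, unadapted and adapted culture, a 3.49-fold step between the mutants. Its 2 probe sets differed between the mutant arrays by 1.84 and 1.77, so they did not disagree. The bright precursor gene mfm2 differed little before adaptation and was 1.93-fold higher after it. The third precursor gene, mfm1, stayed below the limit, at 6.59, 7.46 and 9.28. These 3 genes encode near-identical precursors, so their probe sets may read each other's transcripts.

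The remaining genes of the pathway act on the pheromone, on its reception or on the signal. The gene of the methyltransferase Mam4, which modifies M-factor, read 12.15, 11.92 and 12.53, with the unadapted culture lowest, and its 1.53-fold step was the smallest among the higher members. The kinase gene spk1 read 8.47, 8.84 and 10.17, and ste7, a gene needed for conjugation, read 9.08, 9.21 and 10.36. Values of spk1, ste7 and mfm3 reached the brightness limit on the adapted array only, so their unadapted levels are uncertain. The P-factor receptor gene mam2 was below the limit throughout, at 8.28, 8.46 and 9.49. The M-factor exporter gene mam1 (a log2 difference of 0.36) and the gene of the P-factor protease Sxa2 (-0.01) did not pass. Of 7 measured genes of M-cell pheromone and mating 3 were higher and none was lower, where 0.665% of all features at the limit were higher. The median difference was 0.94, or 0.78 over the 4 genes at the limit. The count of higher genes was 2, without mam4, when quantile normalization was repeated or the intensity trend was removed. Of 6 measured genes of the P-cell list none passed, with a median of 0.25. Only 2 of them, mam3 and sxa1, reached the brightness limit, so the others could not pass. The dim gene map1 of that list had a difference of 1.23. That list held mam3, an adhesin gene of M cells, by error. With mam3 moved, the median was 0.10 over 5 P-cell genes and 0.78 over 8 M-cell genes, with the same counts of members.

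Most other genes of the signalling pathway did not pass. Of 26 measured members of the list for the pheromone kinase cascade and the control of Ste11, 3 were higher (ste11, spk1 and ste7), none was lower, and the median difference was 0.13 (0.09 over the 18 at the limit). Of all features at the limit 0.665% were higher. Upstream kinase genes byr1 and byr2 had log2 differences of 0.05 and 0.06, and ras1 one of -0.11. The gene gpa1, for the G protein alpha subunit that serves the pheromone receptors, had one of 0.38. The gene of the glucose-sensing alpha subunit Gpa2, which acts through cyclic AMP to hold ste11 down, read 10.10, 9.92 and 9.35, a difference of -0.57 just short of the limit. It passed the size rule when quantile normalization was repeated or the intensity trend was removed. Genes of protein kinase A and its regulatory subunit, pka1 and cgs1, stood at 0.12 and 0.15, and rst2, a Ste11 activator, at 0.18.

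Other genes of meiotic entry did not pass. Of 28 measured genes of meiotic entry and early meiosis, mei2 was the only one that passed, and the median was 0. Only 3 of the 28 reached the brightness limit, so that median rests on dim genes, and these 3 all lay above 0, with a median of 0.32. The 109 measured mug and meu genes, named for their induction during meiosis, had a median of 0.04 and 2 members that passed, mug14 and meu18, both lower. Only 30 of the 109 reached the brightness limit, 20 above and 10 below 0, with a median of 0.09. Among the dim ones past the size, mug125, mug20, mug103, mug16, mug166 and mug146 were higher and mug15 and meu10 lower. Mug14 read 7.33, 10.70 and 9.29 in wild type, unadapted and adapted culture, and so stayed well above wild type. Meu18 read 9.93 in wild type and 10.84 unadapted, and its adapted value lay 0.07 above wild type.

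**Figure D3:**
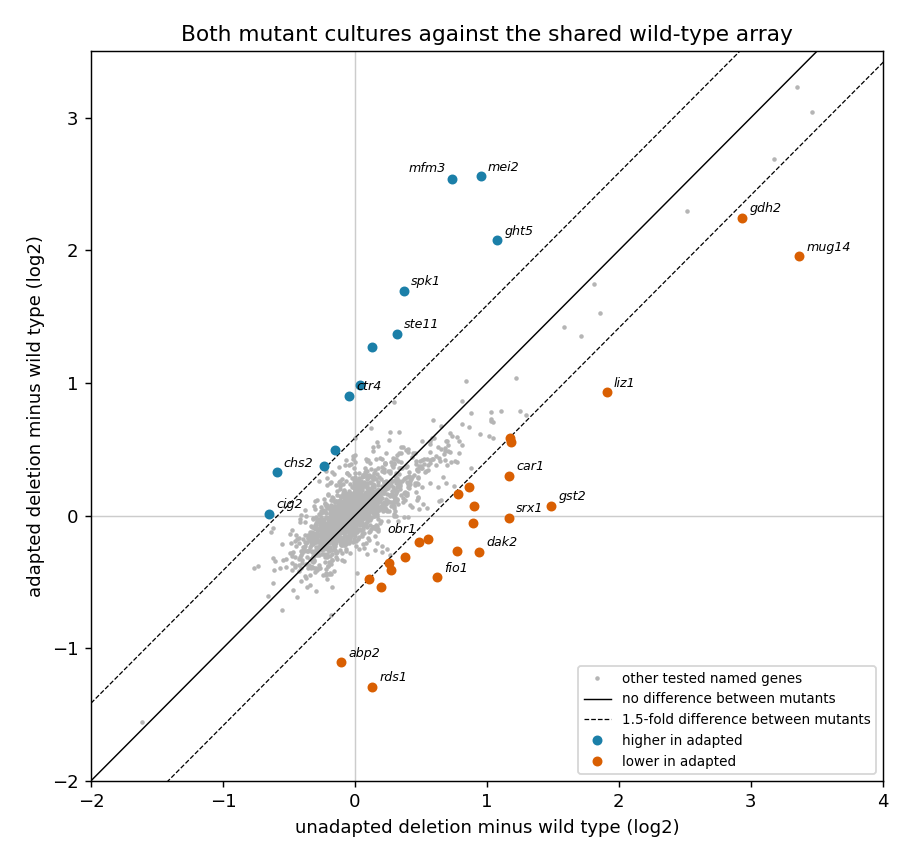
Each point is a named gene at the brightness limit, with its log2 difference from wild type in the unadapted (horizontal) and in the adapted deletion culture (vertical), both against the same wild-type array. The solid line marks equal values in both mutants and the dashed lines a difference of 0.585. Genes such as gst2 and srx1 lie near 0 on the vertical axis only, while mei2 and mfm3 lie highest above the solid line.

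Lower genes of peroxide defence read close to wild type after adaptation. Pap1 is the transcription factor that enters the nucleus under peroxide stress and turns on detoxifying enzymes. The glutathione transferase gene gst2 read 11.43 in wild type, 12.92 in the unadapted and 11.51 in the adapted culture, a 2.67-fold step down. The gene of sulfiredoxin, srx1, which restores overoxidised peroxiredoxin, read 10.96, 12.13 and 10.94. Obr1, a bright Pap1 target gene, read 14.03, 14.52 and 13.83. In all 3 genes the unadapted culture stood highest and the adapted value lay within 0.20 of wild type.

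The whole list did not follow these genes. Of 24 measured genes of peroxide defence 3 were lower, none was higher and the median was -0.04. Of the 24, 22 reached the brightness limit, where 1.52% of all features were lower. The pap1 gene itself read 11.54, 12.21 and 11.83, a difference of -0.38, and the drug exporter genes caf5 and bfr1 had -0.43 and -0.36. Other members that handle peroxide stood near 0, with the peroxiredoxin gene tpx1 at 14.47 on all 3 arrays, the catalase gene ctt1 at 0.04 and the thioredoxin reductase gene trr1 at -0.02. Gst3 went the other way, by 0.39. The gene of the peroxide-responsive transcription factor Hsr1 read 10.89, 11.45 and 10.72.

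The stress-related gene rds1 behaved otherwise. It read 11.19 in wild type, 11.32 unadapted and 9.90 adapted, so the unadapted culture matched wild type within 0.13 and the adapted one lay 2.45-fold below it. Of 33 measured core stress response genes 3 were lower, rds1, gst2 and the pyridoxal reductase gene plr1 (13.41, 13.67 and 13.05), and none was higher. The median of that list was 0.06. Only 23 of the 33 reached the brightness limit, so the others could not pass. Of all features at the limit 1.52% were lower. The kinase gene sty1 and the transcription factor gene atf1, which govern this response, had equal values on both mutant arrays. Hsp16, for a small heat shock protein, read 10.24 and 10.30 in the mutants against 11.86 in wild type, so its low level was common to both.

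Both genes of reductive iron uptake were lower after adaptation. Fio1 is the copper-dependent ferroxidase and Fip1 the iron permease of the high-affinity pathway, and the factor Fep1 represses both genes when iron is plentiful. Fio1 read 10.18, 10.80 and 9.71 and fip1 read 10.62, 11.39 and 10.35 in wild type, unadapted and adapted culture. Both started above wild type and ended below it, with steps of 2.12-fold and 2.05-fold. The 2 genes are direct neighbours in the gene order of assembly ASM294v3, and they were the only adjacent members.

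Of 19 measured genes of iron uptake and its regulators, fio1 and fip1 were lower, none was higher, and the median was -0.14, with 12 below 0. Of the 19, 16 reached the brightness limit, where 1.52% of all features were lower. The vacuolar transporter gene abc3 had a difference of -0.51 and the siderophore transporter genes str3, str1 and str2 had -0.36, -0.16 and 0.42. Fep1 and php4, the regulator genes, had -0.30 and -0.14, and the ferric reductase gene frp1 had 0.19. Members of this list thus went both ways. Among 16 iron-using and iron-sulfur genes none passed, and the largest difference was -0.54 for the mitochondrial exporter gene atm1 (9.84, 11.14 and 10.60).

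A copper transporter gene and a glucose transporter gene were higher. Ctr4, a subunit of the plasma membrane copper transporter, read 11.90, 11.85 and 12.80, so the mutants parted while the unadapted one had matched wild type. Its partner gene ctr5 had a difference of -0.07 and cuf1, for the copper-sensing activator of both, one of 0.07. Ght5, the gene of the high-affinity glucose transporter, read 10.21, 11.29 and 12.28. It was the only member that stood at least 2-fold above wild type before adaptation and then read farther away, at 4.22-fold. Among the other ght genes at the limit, ght2 had -0.16 and ght8 had 0.09, and ght4 and ght3 were dim at 0.42 and 0.31.

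The members held 5 genes of nitrogen, amino acid and purine metabolism, all lower, where 24 of all 36 members were lower. Gdh2, for the NAD-dependent glutamate dehydrogenase, which releases ammonium from glutamate, read 11.19, 14.12 and 13.43. The arginase gene car1, whose enzyme splits arginine into ornithine and urea, read 12.24, 13.40 and 12.54. Gcn2 encodes the eIF2 kinase that senses uncharged tRNA and read 10.56, 11.74 and 11.12. These 3 genes stepped toward wild type and stayed above it, by 4.74-fold for gdh2, 1.23-fold for car1 and 1.47-fold for gcn2. The cysteine synthesis gene cys2 read 11.08, 11.46 and 10.77, and the adenine deaminase gene dea2 read 12.03, 12.22 and 11.49, both ending below wild type.

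Genes of amino acid synthesis lay mostly below 0, and none passed. Of 23 measured genes for arginine, histidine, tryptophan and lysine 19 lay below 0 and 2 above, with a median of -0.17 against 0.02 for all features at the limit. Arg3 read 11.16, 12.41 and 11.95, lys1 read 12.60, 13.37 and 13.00, and arg4 read 13.03, 14.07 and 13.73. All 3 stayed above wild type after adaptation. In the list for branched-chain synthesis the median was -0.09, with ilv1 at -0.24 and leu3 at -0.23, and ilv5 at 0.02. Of its 7 measured genes 5 reached the brightness limit. The full list ranged from -0.51 to 0.25, the value of the deleted gene eca39 itself. Among the amino acid and peptide permeases at the limit, put4 (0.56) and the peptide transporter gene isp4 (0.51) had positive differences. Cat1 (-0.53) and per1 (-0.33) had negative ones.

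A list of 22 genes that stood far from wild type on the unadapted array held 5 lower members (mug14, gst2, srx1, liz1 and gdh2) and 1 higher, ght5. Of the 22, 20 lay below 0, and the median difference was -0.33. In the unadapted culture 21 of them stood at least 2-fold above wild type, and 12 of these still did in the adapted culture. The uracil-induced gene urg1 read 10.03, 13.38 and 13.26, aes1 read 10.61, 14.08 and 13.65, and aca1 read 10.78, 13.96 and 13.48. Their steps down of -0.12, -0.42 and -0.48 did not pass. The list was chosen on the unadapted array, so a second reading nearer to wild type is partly fixed by that choice. The pantothenate transporter gene liz1, from the same list, did pass, with 10.08, 11.98 and 11.01.

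The remaining members served other functions. The dihydroxyacetone kinase gene dak2 read 10.75, 11.69 and 10.48, while its partner dak1 differed by 0.16. Pdx1, for a component of the pyruvate dehydrogenase complex, read 11.36, 12.53 and 11.94, and atp11, for an assembly factor of the mitochondrial ATP synthase, read 10.95, 11.22 and 10.54. The inositol polyphosphate kinase gene ipk1 read 9.93, 10.83 and 9.87, so the adapted value lay 0.05 below wild type. Among genes that act on DNA or transcription, smc5 (9.67, 10.53 and 9.89) and the TFIIIA gene sfc2 (9.67, 10.45 and 9.83) were lower, and the elongation factor gene spt4 (9.91, 9.76 and 10.41) was higher. The cell surface gene pfl8 read 9.72, 9.83 and 9.24, so it reached the limit on the unadapted array alone.

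A pair of neighbouring genes was low in the adapted culture only. Abp2, for a protein that binds replication origins, read 10.79 in wild type, 10.68 unadapted and 9.68 adapted. Cnp3, its neighbour in gene order, for the centromere protein homologous to CENP-C, read 9.59, 9.76 and 8.37 and was no member because it stayed below the limit. Naa35, the gene on the other side of abp2, read 10.67, 10.62 and 10.86. Of 33 named neighbours of members, 31 were not members themselves, and their median difference was 0. Of these 31, 21 reached the brightness limit. Of the 72 named genes past 1.5-fold, bright or dim, 3 pairs were adjacent, fip1 with fio1, abp2 with cnp3, and car1 with the dim gene fet4 (8.17, 8.25 and 7.64). Both genes of each pair had the same direction.

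The 2 higher members that moved toward wild type were 1 gene of the G1/S transition and 1 of the septum. Cig2, the cyclin that starts S phase, read 11.58 in wild type, 10.94 unadapted and 11.60 adapted. Chs2, which takes part in septum formation, read 10.02, 9.42 and 10.34. Of 16 measured G1/S genes cig2 was the only one that passed, 13 lay above 0, and the median was 0.26. The ribonucleotide reductase gene cdc22 read 12.72, 12.10 and 12.62 and the replication licensing gene cdc18 read 10.58, 10.17 and 10.55. The cyclin gene pas1 had a difference of -0.36, against most of the list.

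All 8 measured cell separation genes lay above 0, with a median of 0.26, and chs2 was the only one that passed. Of 11 histone genes and their regulators 10 lay above 0 with a median of 0.17 and none passed, and in both lists the medians kept their sign under each scaling tried. Of 23 chaperone genes 21 lay above 0, with a median of 0.08 and a largest difference of 0.51 for ssa1. That count fell to 19 when quantile normalization was repeated and to 17 when the intensity trend was removed. Over all features at the limit 54.5% lay above 0, with a median of 0.02. For the 119 genes of cytosolic ribosomal proteins the median was 0.0072, and it turned to -0.0016 when the intensity trend was removed. The medians were -0.02 over 28 ribosome biogenesis genes and 0.05 over 38 genes of respiration and the tricarboxylic acid cycle.

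**Figure D4:**
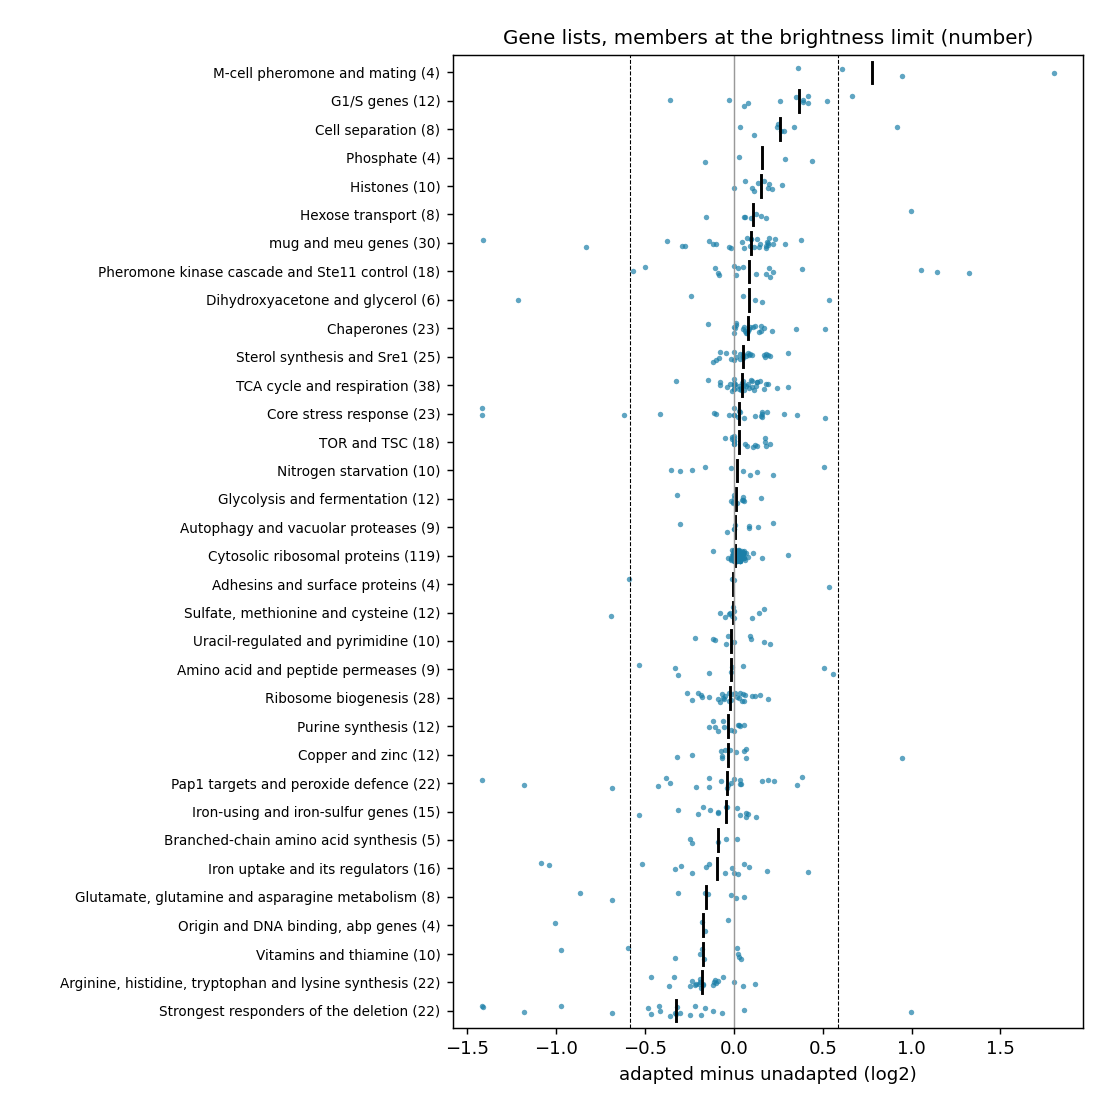
Log2 difference (adapted minus unadapted, 1 array each) of the members of each gene list that reached the brightness limit, with their number in brackets, for lists with at least 4 such members. Black bars are medians and dashed lines mark 0.585 in either direction. The M-cell list has the highest median and the list of genes already high in the unadapted culture the lowest, and most lists centre near 0.

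The size rule has an edge that several members lie near. Just inside on the high side were mam4 at 0.61, spt4 at 0.65 and cig2 at 0.66, and just outside were ppe1 at 0.58, put4 at 0.56 and pom34 at 0.56. On the low side pfl8 (-0.59), pdx1 (-0.59) and sfc2 (-0.61) passed, and gpa2 (-0.57), the heme synthesis gene hem1 (-0.56) and atm1 (-0.54) did not. At a 2-fold threshold 5 genes were higher and 8 lower. The limit was reached on both mutant arrays by 7 of the 12 higher and 20 of the 24 lower members. The others, mfm3, spk1, ste7, chs2 and spt4 among the higher and pfl8, abp2, fio1 and mug14 among the lower ones, reached it only on the array where they were high.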

How the data were processed

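Total RNA of 3 cultures was labelled with biotin by a 3' IVT kit and hybridised to 1 Affymetrix array each, per the labels' protocols. The deposited values are log2 expression values, for which the submitters' processing notes name RMA and affy without versions. RMA sets all arrays to 1 distribution, so a shift of most transcripts would not be seen, and its probe summary can give differences of exactly 0. The log base was taken as 2 from the range of 2.99 to 15.17. The genome build is not given in the sources used here.

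Of 4999 probe sets, 2917 had 1 gene name in the platform annotation, which can be old, 20 had several and 2062 had none. Names were updated through gene numbers, of which 2914 matched assembly ASM294v3, used here for names and gene order only. For 14 genes with several probe sets the mean log2 value was used. This gave 2899 named genes, beside 2082 probe sets without a usable name. The adapted value minus the unadapted value was described by the size rule given above, without a test. Each group had 1 array, and this number sets the precision. Nearer to wild type means a smaller absolute difference from the wild-type array. All named genes past the rule were described, with the 3 genes inside and outside each threshold, list members of largest difference and a set of regulators. The members and the 38 gene lists were chosen with earlier results of these data known. Mam3 (0.54) stood in the P-cell list by error, and pdx1 in the vitamin list. The medians with mam3 moved were added after the data were seen. The computation was checked on simulated data with known differences. Python 3.11.15, pandas and statsmodels were used.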

Additional observations from a re-analysis of the deposited data

How the results depend on the processing

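Each group had 1 array, so array error was not measured and leaving out a replicate was not possible. No paired analysis was possible because each group held 1 sample. The balance of directions depended on the brightness limit. Without one, 41 named genes were higher and 31 lower, 27 moved toward and 45 away from wild type, and 68 features were higher and 82 lower. With the limit at the 10th percentile 30 named genes were higher and 30 lower, 26 moved toward and 34 away, and 49 features were higher and 72 lower. With it at the 50th percentile 7 named genes were higher, without mfm3, spk1, ste7, chs2 and spt4. At 2-fold, 5 named genes were higher and 8 lower, 7 features higher and 17 lower, and 6 named genes moved toward and 7 away from wild type. Repeated quantile normalization and removal of the intensity trend by lowess each kept 35 of the 36 members, lost mam4 (0.57 in both) and added gpa2 and hem1. Taking the brightest probe set of a gene kept all 36. No member changed direction, or its side relative to wild type while it passed, under these 7 alternatives. The median of all features moved by at most 0.011 in size.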

Other observations

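Below the brightness limit, 29 named genes were at least 1.5-fold higher and 7 lower in the adapted culture, out of 747 that did not reach it. Their levels are uncertain, and they were listed after their values were seen. The largest differences were those of pma2, a second plasma membrane proton pump gene (4.27 in wild type, 4.27 unadapted and 6.56 adapted), the septin gene spn6 (5.57, 5.71 and 7.58) and mfm1. The telomere-linked helicase gene tlh2 read 4.85, 4.90 and 6.67. The amino acid permease gene isp5 read 7.34, 8.08 and 9.19, and ste6, for the exchange factor that activates Ras1 in mating, read 8.58, 7.98 and 8.97. The pheromone signalling regulator gene rgs1 read 8.25, 8.28 and 8.92. Among the lower ones, eno102, an enolase gene, read 7.12, 9.10 and 8.21, and the meiotic gene mcp7 read 7.40, 9.14 and 7.88. The iron transporter gene fet4 was lower by a log2 difference of -0.60.

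Lists not described above held few members past the rule, where 1.52% of all features at the limit were lower. Lower members stood in 7 of them, the lists of glutamate, glutamine and asparagine metabolism (gdh2 and car1 of 8 measured, median -0.16), dihydroxyacetone and glycerol (dak2 of 8, 0.09), sulfate, methionine and cysteine (cys2 of 12, -0.01), vitamins (liz1 and pdx1 of 13, -0.04), origin binding (abp2 of 6, -0.10), eIF2 kinases (gcn2 of 3, -0.12) and adhesins (pfl8 of 8, 0). No gene passed in the lists of nitrogen starvation (17 measured, median -0.02), purine synthesis (12, -0.03), sterol synthesis (25, 0.05), phosphate (4, 0.16), autophagy (22, 0.01) and TOR (19, 0). Only 10 of the 17 nitrogen starvation genes and 9 of the 22 autophagy genes reached the brightness limit, so the others could not pass. The largest difference in the nitrogen starvation list was 1.11, that of the dim gene isp5. In the thiamine pathway the dim gene nmt1 read 5.33 in wild type, 5.87 unadapted and 6.69 adapted. The signs of the adhesin, autophagy and TOR medians depended on the scaling.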
